A study of Mus musculus with 8 samples.

Results

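In all, 10 genes of the perineuronal net were followed in nuclear RNA of sorted cortical GABAergic neurons, the inhibitory neurons of the cortex. They were taken by symbol and comprise the 4 lecticans Acan, Bcan, Ncan and Vcan, the 4 link proteins Hapln1, Hapln2, Hapln3 and Hapln4, the crosslinker Tnr and the receptor Ptprz1, which makes 10 of the 55341 gene symbols in the files. All 10 passed the filter on low counts, which kept 17355 genes. The perineuronal net is a lattice of extracellular matrix that closes around the cell body and proximal dendrites of many parvalbumin neurons late in postnatal development and is widely held to limit plasticity. Its backbone is hyaluronan. Lecticans, which are chondroitin sulfate proteoglycans, bind hyaluronan through their amino end, link proteins clamp that bond, and tenascin-R (Tnr) joins the other ends of several lecticans. Ptprz1 is a receptor tyrosine phosphatase whose shed ectodomain is itself a chondroitin sulfate proteoglycan, and much of what is known of it comes from astrocytes and oligodendrocyte precursors.

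The PTU group (mice 9 to 12, n = 4) consisted of hypothyroid juvenile mice whose mothers were given propylthiouracil, a blocker of thyroid hormone synthesis, during gestation. Mice 13 to 16 (PTU+TH, n = 4) were made hypothyroid in the same way and received thyroid hormone (TH) into the peritoneum 24 h before the brain was collected. Mice of both groups carried a Cre-dependent transgene that gives GABAergic neurons a fluorescent nucleus. The Cre driver, strain, sex, exact age and hormone dose are not named in the labels, and euthyroid mice were not analysed here. Each library came from the cortex of a single mouse, and the title of the series places the work in the maturation of parvalbumin neurons. The comparison asks which net transcripts differ a day after TH is given to a hypothyroid mouse.

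Library totals ranged from 21762810 to 29084071 counts. Levels are in CPM, counts scaled to a common library total with TMM factors, fold changes are PTU+TH over PTU, and adjusted p-values are from the edgeR quasi-likelihood test over all 17355 genes. The 8 listed GABAergic markers summed to 5928 to 7973 CPM in PTU and 6053 to 7280 CPM in PTU+TH, with 0 of 7 tested called, 2 above 0 and 5 below. Gad1 was at 389 to 546 CPM and Gad2 at 392 to 481 CPM over the 8 libraries. Dlx6os1 was lower in every PTU+TH library without being called (237 against 193 CPM in the means, edgeR adjusted p = 0.203), and Dlx1 was at 0. Counts of Y-linked genes were found in 6 libraries and not in PTU+TH mice 15 and 16. Of the 17355 genes tested, 368 (2.12%) had an adjusted p under 0.05, of which 258 (1.49%) were higher and 110 (0.634%) lower in PTU+TH. The groups did not overlap in 1512 genes (8.71%), with PTU+TH higher in 4.68% and lower in 4.03%.

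Of the 10 genes, 1 rose (Hapln4), 1 fell (Ptprz1) and 8 were not called, beside a background of 2.12% called. The median log2 fold change of the 10 was 0.17, beside -0.01 over all genes tested. In 3 of the 10 the groups did not overlap (Hapln4 and Bcan higher in PTU+TH, Ptprz1 lower), where 8.71% of all genes tested had groups that did not, 4.68% with PTU+TH higher and 4.03% with it lower. The genes were chosen with results of these data known, so these counts describe them and are not evidence about the net as a whole.

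**Figure D1:**
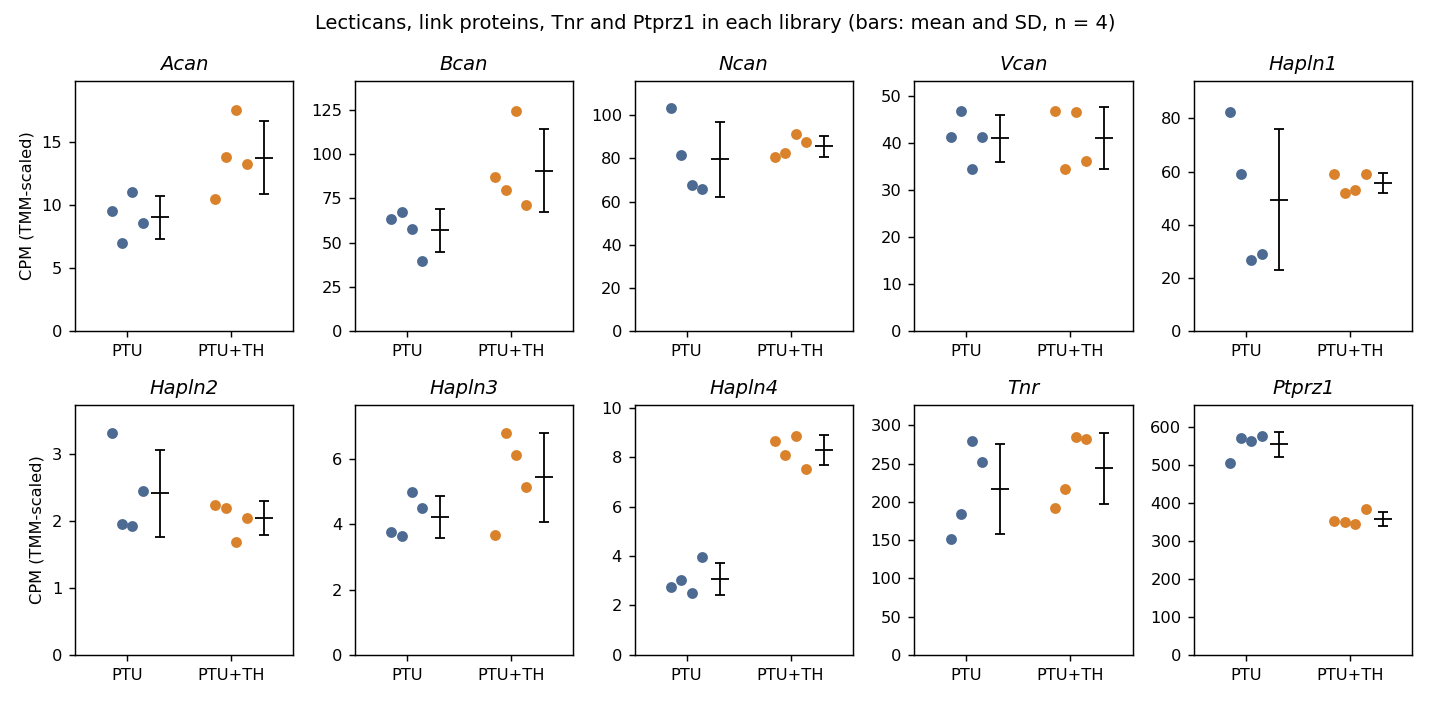
CPM of each gene in each of the 8 libraries, with 4 PTU points on the left and 4 PTU+TH points on the right of each panel, and the mean and SD beside them; every axis starts at 0. The Hapln4 points of PTU+TH (7.52 to 8.86) lie above those of PTU (2.52 to 3.98), the Ptprz1 points lie below (346 to 386 against 507 to 577), and the Hapln1 points of PTU span 27.0 to 82.5.

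Hapln4 encodes the brain link protein Bral2, which is found in nets of the brainstem, cerebellum and other regions and binds brevican. Its level was 2.73, 3.05, 2.52 and 3.98 CPM in PTU mice 9 to 12 and 8.64, 8.08, 8.86 and 7.52 CPM in PTU+TH mice 13 to 16. Every PTU+TH library was above every PTU library, by a wide gap. The rise was 2.69-fold in the means, from 3.07 ± 0.64 to 8.27 ± 0.60 CPM (n = 4 each, SD), with a log2 fold change of 1.43 (SE 0.19, 95% interval 1.02 to 1.84, edgeR adjusted p = 0.0015). These are low counts, 51 to 91 per library in PTU and 158 to 235 in PTU+TH. When only the 6 libraries with Y-linked counts were compared, which leaves out PTU+TH mice 15 and 16, the log2 fold change was 1.44 with an edgeR adjusted p of 0.0504.

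The other 3 link proteins were not called. Hapln1, the cartilage link protein and the link protein best known from cortical nets, stood at 82.5, 59.0, 27.0 and 29.1 CPM in PTU mice 9 to 12 and at 59.0, 52.2, 53.1 and 59.0 CPM in PTU+TH mice 13 to 16. The PTU libraries fell into a high pair (mice 9 and 10) and a low pair (mice 11 and 12), and the PTU+TH libraries lay above the low pair and below mouse 9, with mice 13 and 16 level with mouse 10. The log2 fold change of Hapln1 was 0.17 with a 95% interval from -0.58 to 0.92 (edgeR adjusted p = 0.917). Its SD was 26.5 CPM in PTU against 3.71 CPM in PTU+TH. Leaving out PTU mouse 11 or PTU mouse 12 brought the log2 fold change to -0.03 and -0.01, and leaving out PTU mouse 9 to 0.54.

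Hapln2 encodes Bral1, a link protein of the nodes of Ranvier that is made by oligodendrocytes. It was low, with 37 to 91 counts per library, and went from 2.41 ± 0.65 to 2.04 ± 0.25 CPM (n = 4 each, SD; log2 fold change -0.24, 95% interval -0.81 to 0.32, edgeR adjusted p = 0.801). Without PTU mouse 9 the log2 fold change of Hapln2 was -0.04 and without PTU+TH mouse 15 it was -0.16. Hapln3, the link protein expressed most widely outside the brain, went from 4.23 ± 0.64 to 5.44 ± 1.36 CPM (n = 4 each, SD; log2 fold change 0.37, 95% interval -0.11 to 0.85, edgeR adjusted p = 0.566). Without PTU+TH mouse 14 the log2 fold change of Hapln3 was 0.24. In both genes the groups overlapped. Among the link proteins the interval of Hapln4 (1.02 to 1.84) lay above those of all 3 others, which end at 0.92 for Hapln1.

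**Figure D2:**
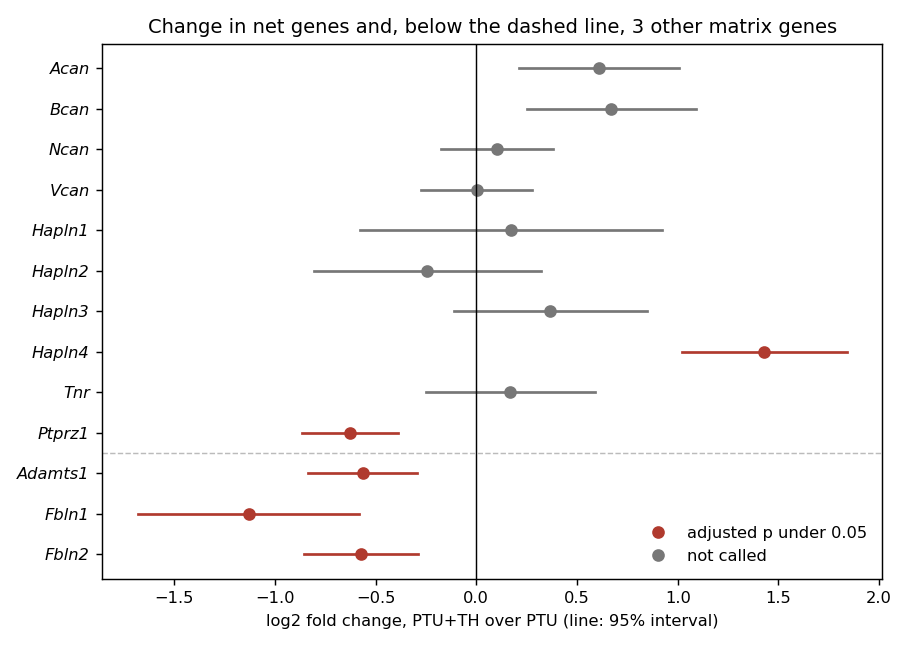
Log2 fold change of PTU+TH over PTU with its 95% interval for the 10 genes and, below the dashed line, for 3 other matrix genes; red marks an adjusted p under 0.05. Hapln4 stands at 1.43 and Ptprz1 at -0.63, and Acan and Bcan have intervals above 0 (0.21 to 1.01 and 0.25 to 1.09) without passing the adjustment over all genes.

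Among the lecticans, none was called by edgeR. Acan, the aggrecan gene and a hallmark of cortical nets, stood at 9.54, 6.96, 11.0 and 8.57 CPM in PTU mice 9 to 12 and at 10.5, 13.8, 17.5 and 13.2 CPM in PTU+TH mice 13 to 16. The groups met only where PTU mouse 11 exceeded PTU+TH mouse 13. The log2 fold change was 0.61 (SE 0.18, 95% interval 0.21 to 1.01, edgeR adjusted p = 0.131, unadjusted p = 0.00561). DESeq2 called it, at an adjusted p of 0.0484.

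Bcan encodes brevican, a brain lectican made by glia and neurons. It stood at 63.2, 67.4, 57.6 and 39.6 CPM in PTU mice 9 to 12 and at 87.4, 79.9, 124 and 71.4 CPM in PTU+TH mice 13 to 16. All PTU+TH libraries were above all PTU libraries, with mouse 16 (71.4 CPM) close to mouse 10 (67.4 CPM), and mouse 15 was the highest. The log2 fold change was 0.67 (SE 0.19, 95% interval 0.25 to 1.09, edgeR adjusted p = 0.124, unadjusted p = 0.00507), and the DESeq2 adjusted p was 0.0187. By edgeR, 4 of the 10 genes had an unadjusted p under 0.05 (Acan, Bcan, Hapln4 and Ptprz1), where 12.8% of all genes did. By DESeq2 these same 4 were called, where it called 4.63% of the 16345 genes to which it gave an adjusted p.

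Ncan and Vcan differed less. Ncan, the neurocan gene, which is most active in the juvenile brain, went from 79.6 ± 17.3 to 85.5 ± 4.82 CPM (n = 4 each, SD; log2 fold change 0.10, 95% interval -0.18 to 0.38, edgeR adjusted p = 0.846). PTU mouse 9 held the highest value, 103 CPM, and PTU mouse 12 the lowest, 65.8 CPM, and without these mice in turn the log2 fold change was 0.26 and 0.02. Vcan encodes versican, a lectican shared with many tissues and with oligodendrocyte precursors. It stood at 40.9 ± 5.05 in PTU and 41.0 ± 6.63 CPM in PTU+TH (n = 4 each, SD; edgeR adjusted p = 0.998), with a 95% interval of the log2 fold change from -0.28 to 0.28. Its log2 fold change was 0.00 and took either sign depending on the scaling.

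The stretch before the start of transcription is shown for Bcan and Acan, the lecticans with the largest fold changes, and for Ptprz1, the gene that fell. RefSeq's promoter table (build GRCm38.p6) held 9 of the 10 genes and had no entry for Hapln4. Each run below is the 250 bases before the RefSeq start, 5′ to 3′ on the gene's strand. Capitals mark the GC box GGGCGG, read on both strands, so that it can appear as CCGCCC.
Bcan: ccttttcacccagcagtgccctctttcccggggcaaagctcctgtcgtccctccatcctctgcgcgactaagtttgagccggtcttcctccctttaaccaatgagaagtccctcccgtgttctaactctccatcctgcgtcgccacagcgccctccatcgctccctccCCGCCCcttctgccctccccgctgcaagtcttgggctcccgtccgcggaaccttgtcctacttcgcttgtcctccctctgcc
Acan: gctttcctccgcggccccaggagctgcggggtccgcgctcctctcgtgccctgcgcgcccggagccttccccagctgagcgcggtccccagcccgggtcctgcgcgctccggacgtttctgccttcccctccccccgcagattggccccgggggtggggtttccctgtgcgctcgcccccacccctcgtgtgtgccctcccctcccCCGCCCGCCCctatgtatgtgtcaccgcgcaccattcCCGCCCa
Ptprz1: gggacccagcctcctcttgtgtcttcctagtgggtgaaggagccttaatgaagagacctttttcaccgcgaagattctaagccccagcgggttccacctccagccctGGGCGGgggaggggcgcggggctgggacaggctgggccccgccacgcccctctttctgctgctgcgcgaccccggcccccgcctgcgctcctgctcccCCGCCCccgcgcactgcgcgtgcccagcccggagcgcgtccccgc
The Bcan run lies on the minus strand of chromosome 3 (88000357 to 88000606), the Acan run on the plus strand of chromosome 7 (79052976 to 79053225) and the Ptprz1 run on the plus strand of chromosome 6 (22875252 to 22875501). They hold 1, 3 and 2 GC boxes, and 2 of the 3 in Acan overlap. A GC box was found in 32.7% of the 32851 promoter windows of that length. GC content was 62%, 74.4% and 71.6%, beside a median of 52.4% over all windows. The hexamer AGGTCA, to which nuclear receptors such as the TH receptors bind, was not in any of the 9 windows on either strand, and it was in 14% of all windows. These letters were searched in these windows only, which says nothing about binding elsewhere.

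Tnr and Ptprz1 were the most abundant of the 10 in CPM. Tnr encodes tenascin-R, which in the brain comes from oligodendrocyte lineage cells and from some neurons, inhibitory ones included. It stood at 152, 184, 279 and 252 CPM in PTU mice 9 to 12 and at 192, 216, 285 and 282 CPM in PTU+TH mice 13 to 16. In each group the higher mouse numbers had more Tnr, by a log2 difference of 0.66 in PTU and 0.47 in PTU+TH. Within PTU+TH the higher numbers, mice 15 and 16, are also the libraries without Y-linked counts, so these cannot be told apart there. The labels name no batch for the mouse numbers. The log2 fold change was 0.17 (95% interval -0.25 to 0.59, edgeR adjusted p = 0.817), and 0.19 with the mouse numbers as a covariate (edgeR adjusted p = 0.355). In the 6 libraries with Y-linked counts it was -0.08, and with single libraries left out it ran from 0.04 (without PTU mouse 9) to 0.32 (without PTU mouse 11). Other gene models cover part of Tnr and leave 81.4% of it uncovered; all 3 of those models were at 0.

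Ptprz1 stood at 507, 573, 563 and 577 CPM in PTU mice 9 to 12 and at 354, 351, 346 and 386 CPM in PTU+TH mice 13 to 16. Every PTU+TH library was below every PTU library. The mean fell from 555 ± 32.4 to 359 ± 18.0 CPM (n = 4 each, SD), a ratio of 0.647, with a log2 fold change of -0.63 (SE 0.11, 95% interval -0.87 to -0.39, edgeR adjusted p = 0.00892). Counts ranged from 7623 to 15236 per library. The mean CPM of Ptprz1, not divided by gene length, was above that of 98.4% of the genes tested. The edgeR adjusted p was 0.0519 without PTU+TH mouse 15, 0.151 without mice 10 and 15, and 0.138 in the 6 with Y-linked counts, at log2 fold changes of -0.61, -0.59 and -0.65. The fall was of like size among lower mouse numbers (-0.61) and higher ones (-0.64).

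For Hapln1, Ncan and Bcan the mouse numbers differed within PTU, where mice 11 and 12 were lower than mice 9 and 10 by log2 differences of -1.32, -0.46 and -0.45. Within PTU+TH the differences of mice 15 and 16 from mice 13 and 14 were 0.01, 0.13 and 0.17. Among mice 9, 10, 13 and 14, the mean log2 CPM of Hapln1 was lower in PTU+TH by a difference of -0.33, and among mice 11, 12, 15 and 16 it was higher by 1.00. For Ncan these differences were -0.17 and 0.42. They were not tested against each other. Hapln4 was higher in PTU+TH in both sets, by 1.53 and 1.36, as were Acan (0.56 and 0.65) and Bcan (0.36 and 0.98).

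Levels can be set side by side across genes only per length. Because nuclear RNA holds introns and the treatment of introns in the counting is not stated, CPM per kb is given over the gene body free of other genes and, in turn, over exons. Per kb of body in PTU, Bcan (4.48 ± 0.96), Ptprz1 (3.13 ± 0.18) and Ncan (2.87 ± 0.62) led, and their ranges over mice overlapped. Hapln1 (0.70 ± 0.38), Tnr (0.65 ± 0.18) and Vcan (0.49 ± 0.06) followed, also with overlapping ranges. Hapln4 (0.41 ± 0.09) and Hapln2 (0.41 ± 0.11) were level with each other, in ranges that overlapped those of Hapln1, Tnr and Vcan. Hapln3 (0.27 ± 0.04) and Acan (0.15 ± 0.03) were lowest (n = 4 each, SD). In PTU+TH, Hapln4 reached 1.12 ± 0.08 CPM per kb of body (SD, n = 4), above every library of Hapln1, Tnr and Vcan and below every library of Ptprz1 (2.03 ± 0.10).

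Over exons the order differed. Ptprz1 led in PTU at 39.0 ± 2.27 CPM per kb of exon, above every library of the other 9 genes, and in PTU+TH at 25.2 ± 1.27 in the means only, where its range lay inside that of Bcan (17.6 to 30.6; n = 4 each, SD). Tnr, whose body is the longest of the 10, moved up to 16.8 ± 4.58 CPM per kb of exon in PTU, where its range overlapped those of Bcan (14.0 ± 3.01) and Ncan (11.1 ± 2.40). Hapln4 had the lowest mean of the 10 in PTU (0.78 ± 0.16), in a range that overlapped those of Hapln2 and Acan, and stood at 2.11 ± 0.15 in PTU+TH (n = 4 each, SD). Bcan, Ptprz1 and Ncan were thus among the 4 highest on either length.

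Each link protein gene lies next to a lectican gene, with 0 annotated genes between them in 4 of 4 pairs (GENCODE M21, build GRCm38). Hapln4 (chromosome 8, 70083457 to 70090862, plus strand) and Ncan (70093085 to 70120873, minus strand) run towards each other with 2222 bases between their ends. Acan (chromosome 7, 79053483 to 79115099, plus) and Hapln3 (79115102 to 79131018, minus) also converge, with a gap of 2 bases. Hapln1 (chromosome 13, 89539796 to 89611652, plus) and Vcan (89655312 to 89742509, minus) converge over 43659 bases. Hapln2 and Bcan (chromosome 3, 88021750 to 88027583 and 87987531 to 88000230) are both on the minus strand, 21519 bases apart, with Hapln2 first. Tnr (chromosome 1, 159523769 to 159931729, plus) has next to it genes with at most 1 count per library. Ptprz1 (chromosome 6, 22875502 to 23052916, plus) has Aass 19256 bases to its right, with at most 9 counts per library, and Gm8930 at 141001 bases to its left, with a log2 fold change of 0.05 (edgeR adjusted p = 0.961).

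**Figure D3:**
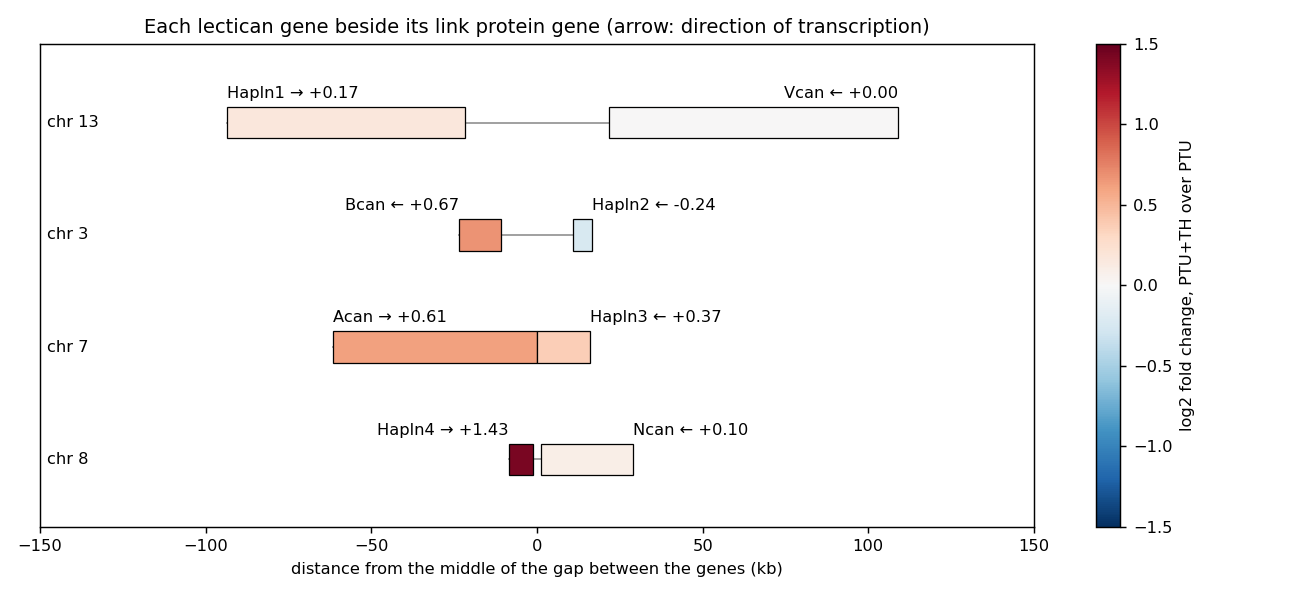
Map of the 4 pairs to scale, with the gene bodies as boxes placed by distance in kb from the middle of the gap, arrows for the direction of transcription and fill colour for the log2 fold change of PTU+TH over PTU. In the bottom row Hapln4 (1.43) and Ncan (0.10) differ in colour although 2222 bases separate them.

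Reads that run on from a neighbour would tie a gene to that neighbour, so the ratio within each pair was taken in each library. There were 2.65, 3.73, 3.73 and 6.05 Hapln4 counts per 100 Ncan counts in PTU mice 9 to 12 and 10.7, 9.80, 9.70 and 8.60 in PTU+TH mice 13 to 16. The ratio was higher in all 4 PTU+TH libraries, by 1.32 on the log2 scale (exact permutation test, two-sided, p = 0.0286, the smallest that 70 arrangements allow; adjusted over the 4 pairs 0.0571). Ncan had the larger counts in every library, and its log2 fold change of 0.10 stands beside 1.43 for Hapln4. The neighbour on the other side, Tm6sf2, lies 3390 bases before Hapln4 on the same strand and stood at 1.86 ± 0.87 in PTU and 3.07 ± 0.82 CPM in PTU+TH (n = 4 each, SD; log2 fold change 0.71 with SE 0.34, edgeR adjusted p = 0.411). In PTU+TH its level was below that of Hapln4 in the means. How many reads in each gene came from its neighbour was not tested, since counts per gene do not place reads.

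The other pairs were compared in the same way. Per 100 Bcan counts there were 5.24, 2.91, 3.35 and 6.19 Hapln2 counts in PTU mice 9 to 12 and 2.56, 2.75, 1.35 and 2.86 in PTU+TH mice 13 to 16, a log2 difference of -0.88 with groups that did not overlap (exact permutation test, two-sided, p = 0.0286; adjusted over the 4 pairs 0.0571). Most of it came from Bcan, the denominator, with a log2 fold change of 0.67, while Hapln2 had -0.24 with groups that overlapped. Per 100 Acan counts there were 47.4 ± 6.37 Hapln3 counts in PTU and 39.5 ± 6.73 in PTU+TH (n = 4 each, SD; log2 difference -0.27, exact permutation test, two-sided, p = 0.114, adjusted 0.152). Hapln3 and Acan, which lie 2 bases apart, both had positive log2 fold changes, of 0.37 and 0.61, and neither was called. On the other side of Acan, Gm26633 lies 159 bases away on the opposite strand, and its body covers the Acan promoter run shown above. It went from 4.14 ± 1.29 to 6.81 ± 2.47 CPM (n = 4 each, SD), with a log2 fold change of 0.72 (SE 0.29, edgeR adjusted p = 0.301). Per 100 Vcan counts there were 119 ± 59.5 Hapln1 counts in PTU and 139 ± 22.6 in PTU+TH (n = 4 each, SD; log2 difference 0.34, exact permutation test, two-sided, p = 0.4, adjusted 0.4). That difference was 0.63 without PTU mouse 9, 0.18 without PTU mouse 11 and 0.13 without PTU mouse 12.

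**Figure D4:**
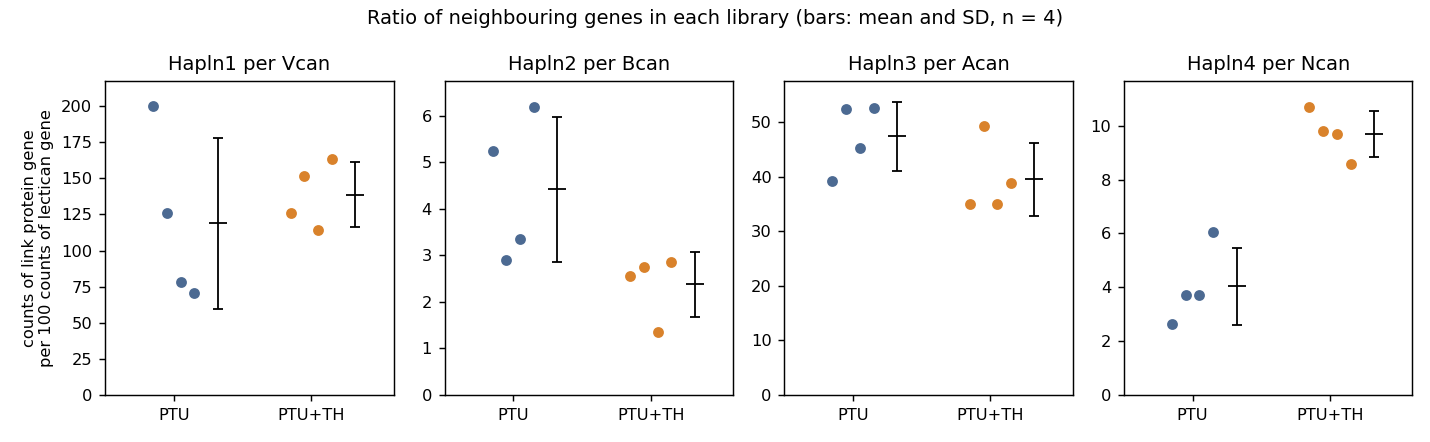
Counts of each link protein gene per 100 counts of the neighbouring lectican gene in each of the 8 libraries, with the mean and SD of the 4 libraries of each group; axes start at 0. Groups are apart for Hapln4 per Ncan (2.65 to 6.05 against 8.60 to 10.7) and for Hapln2 per Bcan (2.91 to 6.19 against 1.35 to 2.86), and overlap in the other pairs.

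Several of these genes are also made by glia, so markers of other cell types were measured in the same libraries. In bulk RNA, fewer cells of a type and less RNA per cell cannot be told apart. Of 9 tested astrocyte markers, 0 were called; the summed CPM of the 10 listed ranged from 309 to 388 in PTU and from 314 to 566 in PTU+TH, and Gfap was at 0 in all 8 libraries. Of 6 tested oligodendrocyte precursor markers, 0 were called, with sums of 130 to 226 and 133 to 214 CPM, and C1ql1 and Gpr17 were at 0. Lhfpl3 alone made up 87.8% of that sum. Like Tnr, that sum was higher in mice 11, 12, 15 and 16 (203 to 226 CPM) than in mice 9, 10, 13 and 14 (130 to 154 CPM), and its part in the Tnr values was not tested. This likeness is that of Lhfpl3, at 101, 115, 210 and 193 CPM in PTU mice 9 to 12. The other tested precursor markers went the other way within PTU. Pdgfra, Cspg4, Olig1, Olig2 and Sox10 were each lower in mice 11 and 12 than in mice 9 and 10. Of 8 tested oligodendrocyte markers, 0 were called, with sums of 97.1 to 125 and 95.2 to 196 CPM. Microglia markers summed to 51.0 to 71.9 and 62.0 to 82.6 CPM with 0 of 7 called, with P2ry12 at 0. Markers of endothelium and mural cells summed to 33.1 to 214 and 40.2 to 157 CPM with 0 of 8 called, and excitatory neuron markers to 277 to 320 and 247 to 331 CPM with 0 of 8 called. Uncalled markers lay above 0 in 6 of 9 for astrocytes, 5 of 6 for precursors, 6 of 8 for oligodendrocytes, 7 of 7 for microglia, 7 of 8 for excitatory neurons and 3 of 8 for endothelium and mural cells, beside 8176 above and 8811 below among all uncalled genes. The 5 genes Gfap, C1ql1, Gpr17, P2ry12 and Dlx1 have no base free of other genes, so their zeros do not show absence.

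PTU+TH mouse 15 had the highest astrocyte, oligodendrocyte, microglia and excitatory neuron sums of all 8 libraries. Its endothelium and mural sum (157 CPM) was below only that of PTU mouse 10 (214 CPM). Mouse 15 also had the highest Bcan (124 CPM) and Acan (17.5 CPM). Without mouse 15 the log2 fold changes of Bcan and Acan were 0.48 and 0.47 (edgeR adjusted p = 0.25 and 0.369). With the astrocyte marker sum as a covariate they were 0.44 and 0.53 (edgeR adjusted p = 0.192 and 0.328), and with the oligodendrocyte sum 0.47 and 0.53 (0.132 and 0.28). Under the same covariates Hapln4 stood at 1.44 and 1.42 (edgeR adjusted p = 0.00709 and 0.00531), and Ptprz1 at -0.61 with both (0.0491 and 0.0332). Within PTU the listed markers did not run together: in mice 9 to 12 Gja1 was at 17.3, 22.4, 7.72 and 5.99 CPM, while Slc4a4, the most abundant of the astrocyte list, was at 112, 122, 171 and 166 CPM. With the precursor marker sum, mostly Lhfpl3, as a covariate, Bcan and Acan were at 0.68 and 0.59 (edgeR adjusted p = 0.198 and 0.0749). Under it Hapln4 was at 1.43 and Ptprz1 at -0.63 (edgeR adjusted p = 0.000921 and 0.000793), and Hapln1 at 0.37 (0.601). The part of glial RNA in the levels of these genes was not tested beyond these covariates.

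**Figure D5:**
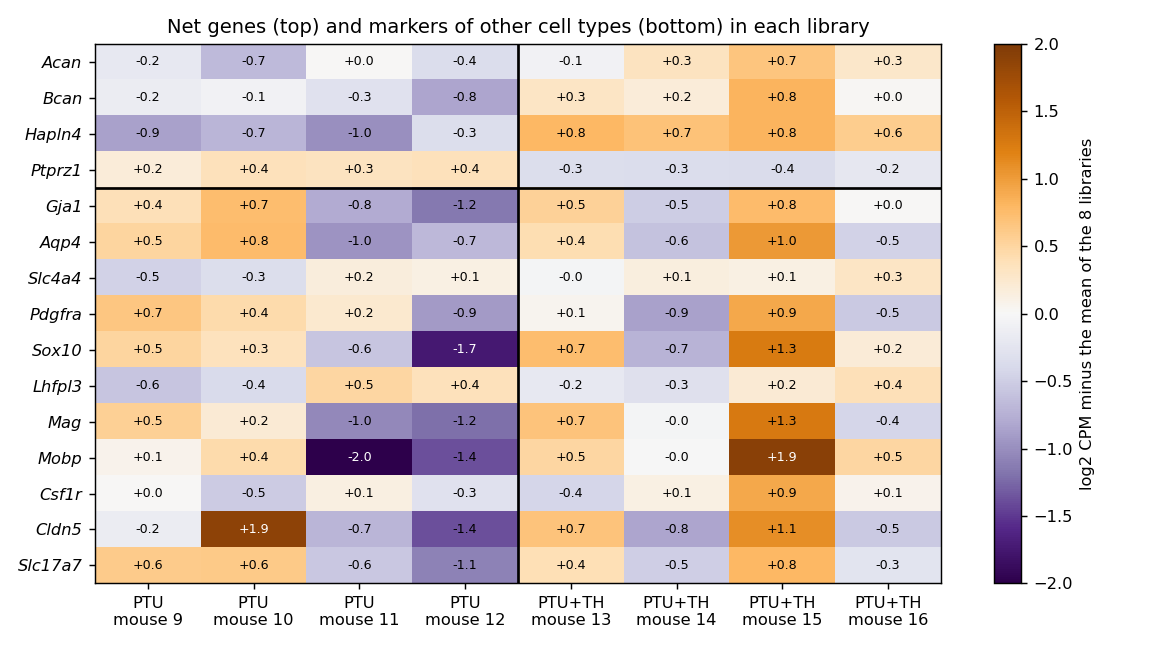
Log2 CPM of 4 net genes (top) and of markers of other cell types (bottom) in each of the 8 libraries, each gene relative to its own mean over the 8. Within PTU, Gja1, Aqp4 and Sox10 are higher in mice 9 and 10 than in mice 11 and 12, and Slc4a4 and Lhfpl3 are lower there; Hapln4 is higher and Ptprz1 lower in every PTU+TH library than in any PTU library.

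Genes that build, modify, cut or bind the net were taken from 6 lists with 67 genes, of which 57 were tested. Of these, 0 were called higher and 3 lower, 31 uncalled genes lay above 0 and 23 below, and the median log2 fold change was 0.04, beside -0.01 over all genes. The share called, 3 of 57, stands beside 2.12% of all genes. The 3 that fell were a lectican protease and a pair of fibulins. Fbln1 lost the call when libraries were thinned to the smallest total (log2 fold change -1.12, edgeR adjusted p = 0.0516). All 3 lost the call with library totals only, with the astrocyte or the oligodendrocyte covariate, without mice 10 and 15, and in the Y-linked set of 6 libraries. With the astrocyte and the oligodendrocyte covariate the log2 fold changes were no smaller than without, at -0.57 and -0.59 for Adamts1, -1.19 and -1.15 for Fbln1 and -0.62 and -0.59 for Fbln2. In the Y-linked set and without mice 10 and 15 they were -0.64 in both for Adamts1, -1.34 and -0.93 for Fbln1 and -0.53 and -0.48 for Fbln2.

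Adamts1 encodes a metalloprotease that cuts aggrecan and versican. It stood at 17.0, 15.2, 15.8 and 16.6 CPM in PTU mice 9 to 12 and at 9.44, 11.3, 11.9 and 11.1 CPM in PTU+TH mice 13 to 16, and the groups did not overlap (log2 fold change -0.56 with SE 0.13, edgeR adjusted p = 0.0361). Its edgeR adjusted p lay between 0.0537 and 0.113 when single libraries were left out, so that the call was lost in each of those 8 fits, at log2 fold changes of -0.61 to -0.50. The other 8 tested members of the list of proteases and inhibitors were not called. Among them Adamts15 and Mmp9 had log2 fold changes of 0.39 and 0.69, and Adamts4 and Adamts5, the aggrecanases proper, -0.49 and 0.28 (edgeR adjusted p = 0.205, 0.349, 0.576 and 0.616). Adamts15 was called when PTU mouse 9 was left out.

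Fbln1 and Fbln2 encode fibulins, matrix proteins that bind the carboxyl end of lecticans, and fibulin-1 is also a known cofactor of Adamts1. Fbln1 stood at 5.61, 6.51, 4.80 and 3.63 CPM in PTU mice 9 to 12 and at 2.02, 2.03, 2.00 and 3.38 CPM in PTU+TH mice 13 to 16 (log2 fold change -1.13 with SE 0.25, edgeR adjusted p = 0.0381). Fbln2 stood at 41.1, 55.4, 42.6 and 51.5 CPM and at 39.0, 27.0, 31.2 and 31.0 CPM (log2 fold change -0.57 with SE 0.13, edgeR adjusted p = 0.0407). In both, all PTU+TH libraries were below all PTU libraries, though PTU+TH mouse 16 came close to PTU mouse 12 in Fbln1. When single libraries were left out, the edgeR adjusted p of Fbln1 lay between 0.0282 and 0.129 and that of Fbln2 between 0.0208 and 0.137, at log2 fold changes of -1.35 to -0.99 and -0.68 to -0.49. The other 8 tested genes of that list, Tnc, Cspg4, Cspg5 and Nptx2 among them, were not called.

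The 4 remaining lists had 0 called genes, and in each the gene with the smallest p is given. Among hyaluronan genes it was the synthase Has2, with 47, 26, 2 and 17 counts in PTU mice 9 to 12 and 14, 0, 9 and 5 in PTU+TH mice 13 to 16 (edgeR adjusted p = 0.488). Among genes that build the chondroitin sulfate chain it was the polymerising enzyme Chsy3, with 193 ± 26.0 in PTU and 249 ± 32.0 CPM in PTU+TH (n = 4 each, SD; log2 fold change 0.37 with SE 0.12, edgeR adjusted p = 0.194). Chsy3 was called with the mouse numbers as a covariate (edgeR adjusted p = 0.0263) and with the precursor marker sum as a covariate (0.0226). Among genes that modify the chain it was the 6-O-sulfotransferase Chst3, with 11 to 18 counts in PTU and 19 to 41 in PTU+TH (log2 fold change 1.08 with SE 0.40, edgeR adjusted p = 0.243). PTU+TH mouse 15 had the most Chst3 (41 counts), and with the astrocyte and the oligodendrocyte covariate its log2 fold change was 0.62 and 0.70. Among matrix receptors and Ptprz1 ligands it was the phosphatase Ptprf, with 164 ± 14.8 and 141 ± 8.94 CPM (n = 4 each, SD; log2 fold change -0.22, edgeR adjusted p = 0.331). Its relative Ptprs, a receptor for chondroitin sulfate, had a log2 fold change of -0.0048, and Ptn and Cntn1, ligands of Ptprz1, had 0.04 each (edgeR adjusted p = 0.996, 0.978 and 0.962).

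For the 2 called genes, the genes with the most similar profile over the 8 libraries were sought among 12670 others, by the mean absolute difference in log2 CPM after centring each gene. Those nearest to Hapln4 were Ston1, an endocytic adaptor, at 0.13, Yjefn3 at 0.14 and Shisa8, an AMPA receptor auxiliary protein, at 0.15. On the log2 scale they rose by 1.24, 1.27 and 1.24 (edgeR, adjusted p = 0.028, 0.000228 and 0.00149). Those nearest to Ptprz1 were Pgap1, which remodels GPI anchors, Slc37a1, a sugar-phosphate exchanger family member, and the serotonin receptor Htr6, all at 0.07. Pgap1 and Slc37a1 fell, by -0.52 and -0.57 on the log2 scale (edgeR adjusted p = 0.00369 and 0.0215), and Htr6 had -0.57 without a call (0.243). The measure includes the difference between the groups, so a like change in these genes follows from how they were chosen.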

How the data were processed

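Nuclear RNA of sorted nuclei was sequenced as single-end reads from SMART-Seq v4 cDNA in Nextera XT libraries, per the labels' protocols. The authors deposited raw counts of reads per gene, 1 file per mouse, with no header. Bowtie2 2.5.3 and the builds mm10 and GRCm38 are named per the submitters' processing notes; the counting program, annotation, strand and introns are not given in the sources used here. The 55341 symbols equal those of GENCODE M21, and 0 rows name no gene. All of the 1325 protein-coding genes wholly inside other genes were at 0, so a 0 there is not read as absence. Chi-square per degree of freedom between libraries of a group, over all genes with enough counts, was at least 8.38, so none was a copy. Within PTU it was 72.6 and 60.7 for mouse 9 against mice 11 and 12, and 42.2 and 29.7 for mouse 10 against them. It was 18.6 between mice 9 and 10 and 8.89 between mice 11 and 12. The split of PTU by mouse number is therefore not particular to the members. Within PTU+TH, mice 13 and 14 (8.38) and mice 15 and 16 (10.6) were closest, and the other pairs had 16.4 to 24.8.

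Counts were fitted with edgeR 4.0.16 (R 4.3.3; filterByExpr, TMM, robust quasi-likelihood test, group as the only term), two-sided, with Benjamini-Hochberg adjustment over 17355 genes at a threshold of 0.05; standard errors are Wald errors from that fit. P-values measure the spread between the mice of a group. Scripts were tested on simulated data. Alternatives covered scaling, filter, DESeq2 1.42.0, limma 3.58.1 voom, marker covariates, thinning and leaving out libraries. The members and lists were chosen with earlier results of these data known. Named were all members, every called pathway gene and the smallest p of each list without a call. Also named were neighbours of called members, the lectican neighbours of link proteins, and the 3 nearest profiles (mean CPM 1 or more, proper symbol). Other genes named were picked after their values were seen: further members of the lists, genes near Hapln4, and Gm26633 beside Acan.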

Additional observations from a re-analysis of the deposited data

Results flagged for a closer look

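In 42 sets of 4 values, a library far from the other 3 of its group was found in 2, where chance gives about 5% of sets. PTU+TH mouse 16 had 3.38 CPM of Fbln1 where the other 3 had 2.00 to 2.03 CPM, a gap of 0.979 of the range. The log2 ratio of Hapln2 to Bcan counts in PTU+TH mouse 15 was -6.21 against -5.29 to -5.13, a gap of 0.849 of the range. Mouse 15 is the library with the highest Bcan and the highest astrocyte, oligodendrocyte, microglia and excitatory neuron marker sums, and their part in that ratio was not tested.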

How the results depend on the processing

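No paired analysis was possible because no number is shared by mice of both groups (9 to 12 and 13 to 16). Against 368 genes called, there were 208 with the astrocyte covariate, 683 with the oligodendrocyte precursor covariate, 756 with DESeq2, 642 with mouse number as a covariate, 58 in the 6 libraries with Y-linked counts, 107 without mice 10 and 15, and 182 to 499 without single libraries. The last 3 settings hold fewer mice, yet the count rose to 499 without PTU mouse 9. The cause of these differences was not tested in any setting. The mouse number covariate, the Y-linked set and the set without mice 10 and 15 were chosen after the data were seen. Of the 10 members, 2 were called; DESeq2 called 4 (log2 fold changes 0.61 for Acan and 0.67 for Bcan), the 6 libraries 0, the set without mice 10 and 15 only 1 (Hapln4), and fits without single libraries 1 to 2. Hapln4 was at 1.44 in the 6 libraries (edgeR adjusted p = 0.0504), and Ptprz1 at -0.65 there and -0.59 without mice 10 and 15. Of the pathway genes 3 were called, against 0 with library totals only, with the astrocyte or the oligodendrocyte covariate, in the 6 libraries and without mice 10 and 15, 5 with the precursor covariate (Chsy3 and Csgalnact1 added), 4 with mouse number (Chsy3 added), 2 after thinning (without Fbln1) and 0 to 2 without single libraries; with library totals or either of those covariates their log2 fold changes were -0.57 to -0.59 (Adamts1), -1.15 to -1.19 (Fbln1) and -0.59 to -0.62 (Fbln2). Vcan changed sign at values of -0.0010 (RLE), -0.023 (library totals), -0.12 and -0.10 (astrocyte and oligodendrocyte covariates), -0.0011 (thinned), -0.00096 (DESeq2), -0.014 (limma voom) and -0.011 (6 libraries), and Tnr at -0.084 in the 6 libraries. Without single libraries, log2 fold changes ranged from -0.073 to 0.079 for Vcan, -0.028 to 0.54 for Hapln1, -0.33 to -0.04 for Hapln2, 0.24 to 0.52 for Hapln3, 0.02 to 0.26 for Ncan, 0.04 to 0.32 for Tnr and -0.66 to -0.61 for Ptprz1, and of Hapln4 from 1.35 to 1.58, called in all 8. Those of Acan ranged from 0.47 to 0.72 and those of Bcan from 0.48 to 0.77, and neither gene was called in these fits. The pair ratios kept direction and side under the alternatives run for them, though the log2 difference of Hapln1 per Vcan ran from 0.13 to 0.63 without single libraries. On library totals the endothelium and mural sum went from a difference of 1.43 to -1.89 CPM, both within its SD, and the other 6 marker sums kept direction. Scaling alternatives moved the median of all genes to -0.03 at most. Hapln2, Hapln3, Hapln4 and Acan had the fewest counts of the 10 members, with 37 to 402 per library.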

Other observations

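Yjefn3, the second nearest profile to Hapln4, is also near it in the genome, 180744 bases to its left on chromosome 8 (69887788 to 69902712). It rose from 14.5 ± 2.77 to 34.9 ± 1.80 CPM (n = 4 each, SD; log2 fold change 1.27 with SE 0.13, edgeR adjusted p = 0.000228), and 42.8% of its body is free of other genes. Cilp2, beside Yjefn3, had 5.04 ± 1.28 CPM without TH and 8.39 ± 1.23 CPM with it (n = 4 each, SD; log2 fold change 0.73 with SE 0.20, edgeR adjusted p = 0.0923), with groups that did not overlap. Between Yjefn3 and Hapln4 lie tested genes with log2 fold changes on both sides of 0, among them Gatad2a (-0.01), Mau2 (-0.20), Sugp1 (-0.16) and Tm6sf2 (0.71), and none of these was called. Within 250 kb of Hapln4, 1 of 22 other tested genes was called, beside a background of 2.12%, and the median log2 fold change of the 22 was -0.02. The window was chosen after Yjefn3 was seen. Around Acan, Bcan, Vcan, Hapln1, Hapln2, Hapln3, Tnr and Ptprz1, 0 tested genes within 250 kb were called, of 7, 19, 3, 4, 17, 6, 2 and 2.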
